A study of Homo sapiens with 6 samples.

Results

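The nuclear pore complex and the receptors that carry cargo through it were examined in LNCaP, a widely used human line of prostate cancer cells that respond to androgen, with and without knockdown of the retinoblastoma gene RB1. The genes were chosen by symbol. They are the protein-coding genes named NUP, IPO, XPO or TNPO with a number, the KPNA and KPNB genes, and RANBP2, TPR, POM121, RAE1, NDC1, AAAS and CSE1L. The count table held 49 transcript IDs of this kind, for 48 genes (IPO11 had 2), among 22279 IDs in all. RNA was sequenced from 3 libraries of cells with a hairpin against RB (shRB) and 3 libraries of cells with a control hairpin (shCON). All 6 received 72 h of a treatment the labels call CDT, listed as a cell cycle arrest treatment, in what the series describes as hormone-deficient conditions, whereas the cells were otherwise kept in medium with hormone. The labels give 1 hairpin per group and no clone, so an effect of RB loss and of the particular hairpin or cell population cannot be told apart. They do not say whether replicates were separate cultures, so p-values reflect only the variation among these libraries, possibly technical. The study asked how RB loss alters transcription in this condition.

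Nuclear pores are the channels of the nuclear envelope. Nucleoporins build their scaffold rings, a channel lined with phenylalanine-glycine repeats that bars large molecules, cytoplasmic filaments and a nuclear basket. Importins bind cargo in the cytoplasm and release it when they meet the small GTPase RAN in its GTP form in the nucleus, while exportins bind cargo together with RAN-GTP and release it outside. Importin alpha proteins are adaptors that link cargo with a classical nuclear localization signal to importin beta, and CSE1L returns them to the cytoplasm. Pores are assembled both after mitosis and during interphase, so growing cells need new pore components.

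RB1 itself was read at 56.6, 52.7 and 54.7 CPM (read counts scaled for library depth) in shCON libraries 1, 2 and 3 and at 5.83, 3.82 and 5.41 CPM in the shRB libraries, which leaves 9.18% of the shCON mean (log2 fold change −3.43 ± 0.13, SE; edgeR adjusted p = 2.4e-09). Values by library are given in the order 1 to 3 throughout. Total counts per library were 6115310 to 20091488. Among the shRB libraries, shRB 2 differed most from its group. Across genes, Spearman's rho between a library's departure from its group and transcript GC content was 0.70 in shRB 2, −0.51 in shRB 1 and −0.55 in shRB 3, given as a description. In shCON 1, shCON 2 and shCON 3 it was −0.52, 0.53 and −0.088, so shCON 2 departed in the same direction as shRB 2. All 9 luminal prostate markers were present in every library. Of 11 basal, stromal, endothelial and leukocyte markers, 6 were at 0 in all libraries, KRT14, TP63 and DCN had at most 13 counts in any library, and COL1A1 and CD68 were read in both groups. The summed level in shCON and in shRB was 0.301 to 0.638 and 0 to 0.106 CPM for 3 basal markers, 16.4 to 19.4 and 11.7 to 15.3 CPM for 3 stromal markers, and 5.06 to 6.87 and 4.92 to 5.20 CPM for 3 leukocyte markers. The part of these cell types in the results was not tested.

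Of the 48 IDs with enough counts to be tested, 10 were higher and 1 was lower in shRB (edgeR quasi-likelihood test, adjusted p under 0.05 over 11712 IDs). Together they are 22.9% of the set, and 25.3% of all IDs tested passed in either direction. Those that rose are 20.8% of the set against 12.8% of all IDs tested, and the single fall is 2.08% against 12.5%. For 16 genes all 3 shRB libraries lay above all 3 shCON libraries (33.3% of the set, 21.0% of all IDs tested) and for 2 they lay below (4.17%, 20.2%). The median log2 fold change of the set was 0.10, and that of all IDs was −0.0062, with 33 positive and 15 negative values in the set. The changes were modest, between −0.46 and 0.57 on the log2 scale. The genes that rose were NUP210, KPNA2, NUP35, IPO4, NUP88, NUP160, NUP62, NUP93, NUP188 and KPNA1, and the gene that fell was NUP54. KPNA7, an importin alpha of the oocyte and early embryo, had 0 counts in every library and was not tested. KPNB1, RAE1 and TNPO1 were not analysed here.

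**Figure D1:**
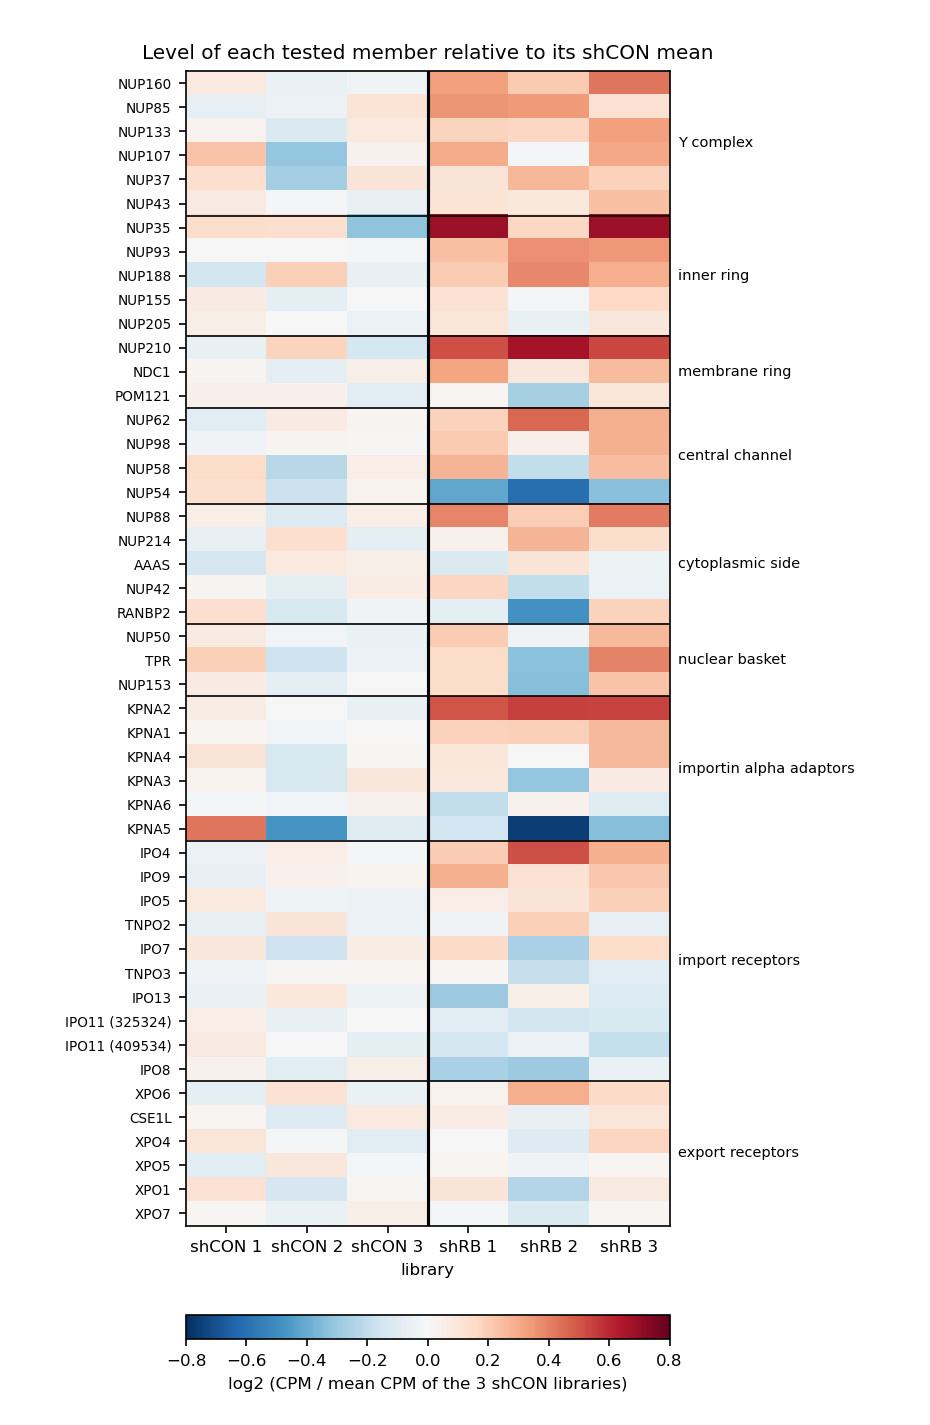
Level of each tested transcript ID (rows, by role in the pore or in transport) in each library (columns), as log2 of CPM over the mean CPM of the 3 shCON libraries. KPNA2 and NUP210 are raised in all 3 shRB libraries and NUP54 is lowered in all 3, while shRB 2 departs from shRB 1 and shRB 3 in genes such as NUP35, TPR and RANBP2.

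The count of genes that rose depended on single libraries. Without shCON 1 it was 4 (7.31% of all IDs), and without shCON 2 or shCON 3 it was 6 (9.48% and 8.20% of all IDs). Of the 48 IDs, 31 had their lowest shRB value in shRB 2 (median GC content 41.8%, against 51.5% for the other 17). Without shRB 2, 20 of the set were higher and 2 lower (17.5% and 16.5% of all IDs), including the same 10 that rose with all libraries. With a per-library correction for GC content, 21 were higher and 1 lower (22.0% and 17.5% of all IDs), again including these 10. Markers of proliferation were read in the fit with all libraries. Of 8 listed markers, 7 rose and 0 fell (12.8% and 12.5% of all IDs). CCNE2 did not pass (log2 0.017, edgeR adjusted p = 0.93). The summed level of the 8 markers was 756.0 to 844.6 CPM in shCON and 1209 to 1301 CPM in shRB. The part of proliferation in the changes below was not tested, and in bulk RNA a change in the share of cycling cells and a change in RNA per cell cannot be told apart.

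**Figure D2:**
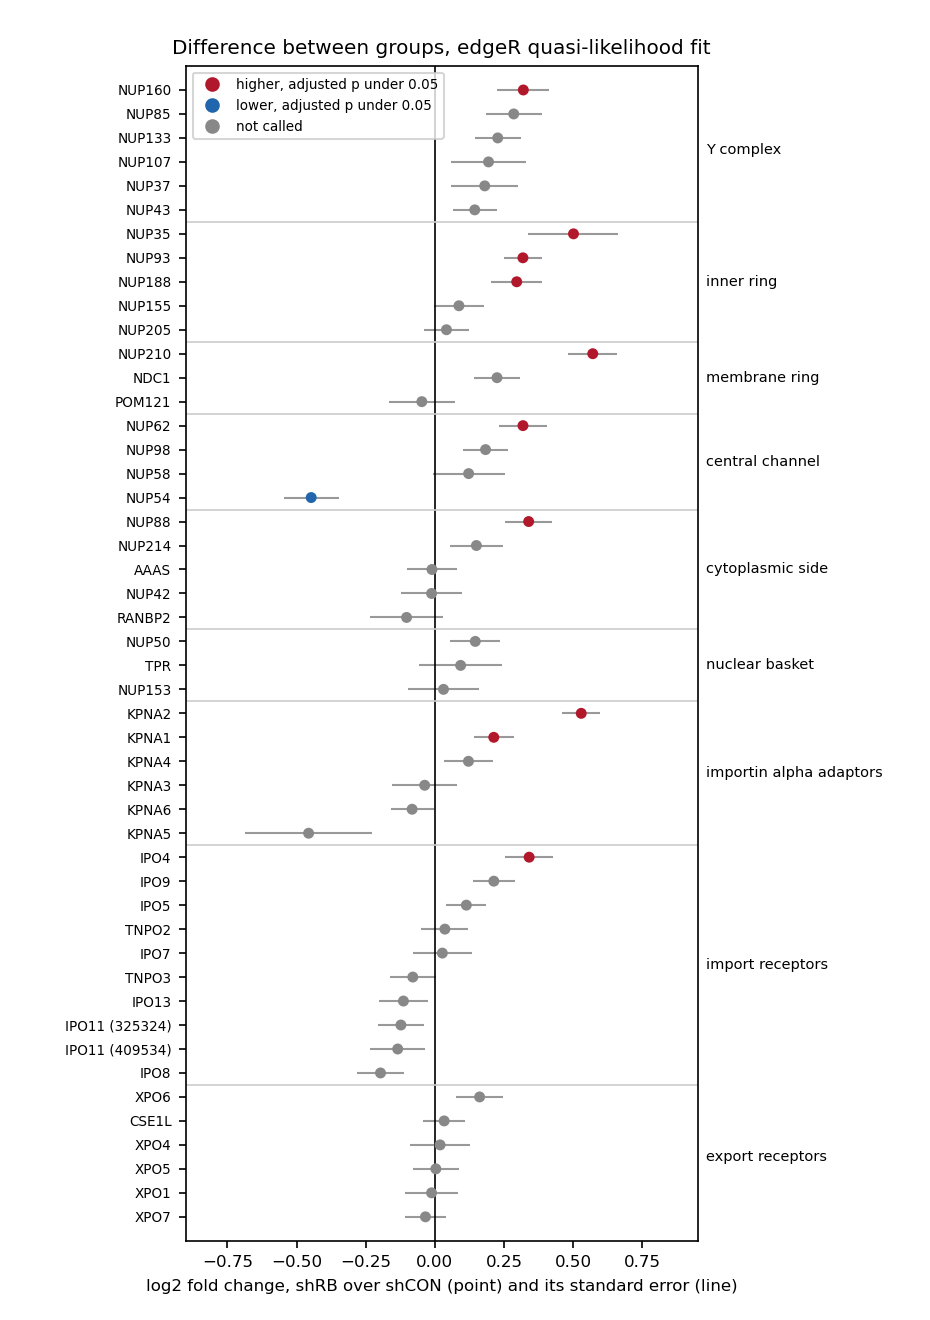
Log2 fold change of shRB over shCON (horizontal axis; lines are 1 standard error) for the 48 tested IDs by role. Red points rose and the blue point fell at an adjusted p under 0.05. All 6 Y complex and all 5 inner ring estimates lie above 0, whereas the 6 export receptors lie between −0.034 and 0.16.

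The 250 bases upstream of the annotated start are shown for 5 genes on which the results turn, the 3 largest rises and the 2 channel genes that moved in opposite directions. The sequences are from RefSeq (build GRCh38.p14), in which 43 of the 48 genes had an entry. Capitals mark matches, on either strand, to 4 motifs: an E2F-type element (TTTCCCGC, TTTCGCGC, TTTGCCGC or TTTGGCGC), the cell cycle homology region (TTTGAA or TTCGAA), an NRF1-type element (GCGCA followed directly by its reverse complement) and the CCAAT box (CCAAT). No 2 matches overlapped in these 5 windows. The windows are KPNA2 (chr17:68035485-68035734, plus strand), NUP210 (chr3:13420323-13420572, minus strand), NUP35 (chr2:183124193-183124442, plus strand), NUP62 (chr19:49929505-49929754, minus strand) and NUP54 (chr4:76148398-76148647, minus strand).
KPNA2: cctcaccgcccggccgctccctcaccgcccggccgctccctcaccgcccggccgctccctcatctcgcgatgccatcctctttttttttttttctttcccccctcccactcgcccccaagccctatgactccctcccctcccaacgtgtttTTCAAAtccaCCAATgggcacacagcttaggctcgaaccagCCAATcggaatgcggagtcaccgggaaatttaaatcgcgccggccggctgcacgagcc
NUP210: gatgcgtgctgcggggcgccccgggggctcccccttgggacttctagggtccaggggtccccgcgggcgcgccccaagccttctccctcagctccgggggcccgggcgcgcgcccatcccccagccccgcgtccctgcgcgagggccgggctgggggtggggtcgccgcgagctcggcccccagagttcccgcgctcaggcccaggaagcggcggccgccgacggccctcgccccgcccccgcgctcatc
NUP35: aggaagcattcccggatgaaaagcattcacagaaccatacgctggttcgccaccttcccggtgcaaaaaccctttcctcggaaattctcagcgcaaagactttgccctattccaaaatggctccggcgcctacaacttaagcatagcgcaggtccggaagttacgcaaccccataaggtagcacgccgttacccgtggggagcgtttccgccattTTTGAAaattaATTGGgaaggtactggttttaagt
NUP62: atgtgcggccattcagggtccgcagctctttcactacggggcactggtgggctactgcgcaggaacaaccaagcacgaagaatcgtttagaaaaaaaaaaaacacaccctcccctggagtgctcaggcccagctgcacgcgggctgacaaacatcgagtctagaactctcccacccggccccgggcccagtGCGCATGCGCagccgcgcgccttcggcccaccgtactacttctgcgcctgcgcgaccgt
NUP54: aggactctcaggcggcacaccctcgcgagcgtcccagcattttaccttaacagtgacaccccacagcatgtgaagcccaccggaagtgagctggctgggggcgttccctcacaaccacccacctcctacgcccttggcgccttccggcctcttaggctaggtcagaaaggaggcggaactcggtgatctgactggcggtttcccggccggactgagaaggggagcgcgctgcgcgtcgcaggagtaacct

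In the KPNA2 window a cell cycle homology region lay 99 to 94 bases before the start, with CCAAT boxes at 89 to 85 and at 58 to 54. NUP35 held the same motif pair, at 35 to 30 and at 24 to 20 bases before the start. The windows of CSE1L, NUP37, NUP98 and NUP205, which were not called, also held both motifs. NUP62 held an NRF1-type match at 59 to 50, and the windows of NUP210 and NUP54 held none of the 4 motifs. Among the 10 genes that rose, 0 held an E2F-type match, 2 a cell cycle homology region, 1 an NRF1-type match and 4 a CCAAT box. Over the 43 genes the shares were 2.3%, 23.3%, 7.0% and 44.2%, and over 9341 promoters of tested genes 4.4%, 9.1%, 2.2% and 35.6%. Over all 27305 promoters they were 2.8%, 14.6%, 1.1% and 33.0%. Of the 32 genes that were not called, 8 held the cell cycle homology region. These are matches to letters in 1 window per gene and say nothing of binding.

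Importin alpha adaptors were led by KPNA2, also called importin alpha-1, the family member best known for high levels in dividing cells. KPNA2 was 204, 196 and 188 CPM in shCON and 278, 287 and 285 CPM in shRB. The groups did not overlap, and the lowest shRB library stood well above the highest shCON library. The rise was 1.44-fold (log2 0.53 ± 0.069, SE; edgeR adjusted p = 9.8e-05), and KPNA2 kept its call in all 18 alternatives. Per kb of transcript KPNA2 was the most abundant of all 49 IDs, at 89.8 CPM per kb in shCON and 129.9 in shRB. Its share of the summed per-kb level of KPNA1 to KPNA6 was 60.7, 61.9 and 59.1% in shCON and 68.2, 69.3 and 67.6% in shRB, again with no overlap. The other 5 adaptors together were 418, 387 and 413 CPM in shCON and 413, 414 and 442 CPM in shRB, with overlapping groups. GENCODE lists 3 pseudogenes named after KPNA2, none with a row in the table, and reads may be shared with them.

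**Figure D3:**
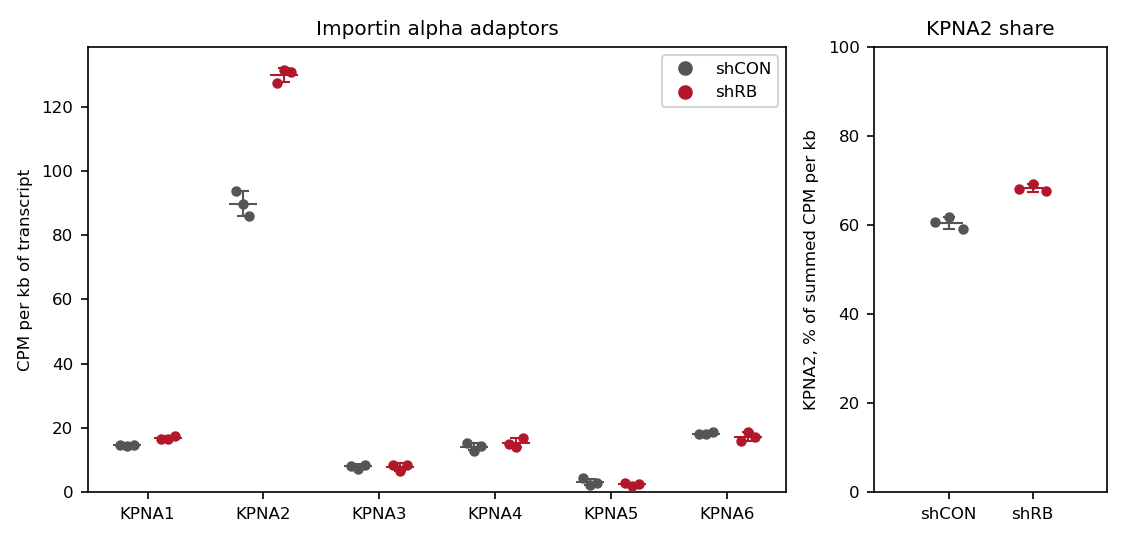
Left, CPM per kb of transcript of the 6 importin alpha genes with counts, 1 point per library, with the mean and SD of each group of 3. Right, KPNA2 as a percentage of their sum, 59.1% to 61.9% in shCON and 67.6% to 69.3% in shRB.

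KPNA1, an adaptor of another subfamily, was 101, 98.7 and 100.3 CPM in shCON and 114, 114 and 119.9 CPM in shRB. The groups were tight and separate, and the rise was 1.16-fold (log2 0.21 ± 0.071; edgeR adjusted p = 0.043). The call was marginal. KPNA1 no longer passed under DESeq2 (adjusted p = 0.060), without a filter, with 3 other settings, or without any single library other than shRB 2 (adjusted p = 0.082 to 0.13 by edgeR). It lies on chromosome 3, where 662 other tested IDs had a median log2 fold change of 0.15, so its change stands closer to its chromosome's median than that of KPNA2 on chromosome 17 (0.023). KPNA3, KPNA4, KPNA5 and KPNA6 did not pass, with log2 fold changes of −0.037, 0.12, −0.46 and −0.082. KPNA1 exons also overlap those of the opposite-strand gene WDR5B-DT (log2 −0.45, not passing). Of the other 4 adaptors, KPNA4 passed without shRB 2 (0.18, edgeR adjusted p = 0.044). KPNA4 also lies on chromosome 3, and its 0.12 with all libraries was under the chromosome median of 0.15. KPNA5 was the least abundant at 9.38, 5.02 and 6.54 CPM in shCON and 6.28, 4.14 and 5.51 in shRB, and its 95% interval of −0.95 to 0.035 was the widest of the set. KPNA5 passed as lower without a filter on low counts (−0.46, edgeR adjusted p = 0.045) and with the replicate number as a term (−0.41, adjusted p = 0.049). Without shCON 1, its highest library, the log2 fold change of KPNA5 was −0.083 (edgeR adjusted p = 0.85).

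Among the 3 transmembrane nucleoporins, which anchor the pore in the membrane, NUP210 and NDC1 were higher in every shRB library than in any shCON library, and NUP210 passed. NUP210 (gp210), whose bulk lies in the lumen of the nuclear envelope, was 141, 166 and 133 CPM in shCON and 209, 232 and 213 CPM in shRB. It had the largest rise of the set, 1.49-fold (log2 0.57 ± 0.089; edgeR adjusted p = 0.00041), and passed in all 18 alternatives. NUP210 is also on chromosome 3, and its log2 fold change exceeded the chromosome median of 0.15. GENCODE lists 3 pseudogenes of NUP210, of which 1 is in the table. NDC1, which recruits scaffold parts to the membrane, was 74.7, 70.1 and 76.0 CPM in shCON and 91.6, 78.3 and 87.8 in shRB. Its log2 fold change of 0.22 ± 0.084 did not pass with all libraries (edgeR adjusted p = 0.065) and was 0.30 with an adjusted p of 0.0014 without shRB 2. POM121 was −0.047 ± 0.12 and overlapped between groups, and its reads may be shared with its near-identical copy POM121C.

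In the inner ring, which holds the scaffold together and anchors the channel proteins, 3 of 5 genes rose and 0 fell. Of all IDs tested, 12.8% rose and 12.5% fell. NUP93, the linker that binds the other inner ring proteins, was 179.8, 179 and 178 CPM in shCON and 212, 231 and 228 CPM in shRB. The shCON libraries were almost equal, and the rise of 1.25-fold (log2 0.32 ± 0.070; edgeR adjusted p = 0.0046) held in all 18 alternatives. Per kb NUP93 was the third most abundant ID of the set, at 62.3 CPM per kb in shCON and 77.7 in shRB. NUP188, a large scaffold protein that binds NUP93, was 112, 142 and 119 CPM in shCON and 143, 162 and 152 in shRB. Its highest shCON library lay just under its lowest shRB library, and the log2 fold change was 0.30 ± 0.093 (edgeR adjusted p = 0.032). NUP188 lost its call without shCON 1 (0.22, adjusted p = 0.17), without shCON 3 (adjusted p = 0.12) and without shRB 3 (adjusted p = 0.071). Its exons overlap 61 bases of SH3GLB2 on the opposite strand, which had a log2 fold change of −0.24 and did not pass.

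NUP35 (NUP53), a membrane-binding inner ring protein, had the lowest level of the ring. Its values were 12.6, 12.6 and 9.15 CPM in shCON and 18.5, 12.8 and 18.4 CPM in shRB. The library shRB 2 lay just above the highest shCON library, whereas shRB 1 and shRB 3 were clearly higher, and the log2 fold change was 0.50 ± 0.16 (edgeR adjusted p = 0.038). The log2 fold change was 0.64 (adjusted p = 6.9e-05) without shRB 2, and NUP35 no longer passed without any one of the other 5 libraries (adjusted p = 0.060 to 0.13). NUP155 and NUP205, the remaining large scaffold proteins, were 0.087 ± 0.089 and 0.042 ± 0.080 and overlapped between groups, with 95% intervals of −0.11 to 0.28 and −0.13 to 0.21. The inner ring thus held both genes that rose and genes without a detected change.

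The Y complex, the outer scaffold ring that also works at kinetochores in mitosis, had positive estimates for all 6 genes measured (log2 0.14 to 0.32), of which 1 passed. By comparison, 49% of all IDs tested had positive estimates and 12.8% passed as higher. NUP160 was 40.9, 37.5 and 38.1 CPM in shCON and 48.7, 45.0 and 52.2 CPM in shRB, without overlap (log2 0.32 ± 0.094; edgeR adjusted p = 0.024). It passed at 0.38 without shRB 2 (adjusted p = 0.00061) but not without any one of the other 5 libraries (adjusted p = 0.050 to 0.092). NUP85 (0.29 ± 0.10) and NUP133 (0.23 ± 0.083) also showed no overlap and missed the threshold (edgeR adjusted p = 0.054 and 0.059). NUP43, the most abundant Y complex gene per kb (19.6 CPM per kb in shCON), was 79.9, 75.3 and 72.9 CPM in shCON and 82.0, 80.7 and 90.0 in shRB, separate but close (log2 0.14 ± 0.080; adjusted p = 0.21 by edgeR). NUP37 and NUP107 overlapped between groups. Without shRB 2, the count for the Y complex was 4 of 6 (17.5% of all IDs higher). It took in NUP85, NUP107 and NUP133 beside NUP160 (edgeR adjusted p of 0.026, 0.026 and 0.0044 for the added 3). With the GC correction the count was 5 of 6 (22.0% of all IDs higher), and NUP43 passed too (0.21, edgeR adjusted p = 0.013).

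Among the channel nucleoporins, NUP54 fell and NUP62 rose. NUP62, NUP58 and NUP54 form the channel complex that NUP93 anchors. NUP54 was 85.0, 69.0 and 79.1 CPM in shCON and 58.4, 51.1 and 61.7 CPM in shRB, the only fall in the set (log2 −0.45 ± 0.10, 0.733 of the control level; edgeR adjusted p = 0.0052). It passed as lower in all 18 alternatives. NUP62 was 102, 114 and 110.3 CPM in shCON and 123, 149.6 and 133 CPM in shRB, a 1.25-fold rise (log2 0.32 ± 0.086; edgeR adjusted p = 0.015) that no longer passed without shCON 1 (0.27, adjusted p = 0.090). NUP58 overlapped between groups, at 50.0, 38.9 and 46.9 CPM and 54.7, 39.5 and 53.8 CPM (log2 0.12 ± 0.13). It was 0.26 (adjusted p = 0.021 by edgeR) without shRB 2.

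The ratio of NUP62 to NUP54 CPM, which does not depend on library scaling, was 1.20, 1.65 and 1.40 in shCON and 2.11, 2.93 and 2.16 in shRB. The groups could not overlap, because NUP62 was higher and NUP54 lower in every shRB library than in any shCON library. The separation therefore adds nothing to the values of each gene. Both groups were highest in replicate 2, the library of each group with the most positive relation to GC content. NUP62 transcript GC content was 57.1% and that of NUP54 39.8%. With the GC correction the log2 fold changes were 0.29 for NUP62 and −0.36 for NUP54 (edgeR adjusted p = 0.00042 and 0.00014), and without shRB 2 they were 0.25 and −0.37. The ratio of NUP58 to NUP54, which includes the same fall of NUP54, was 0.588, 0.563 and 0.593 in shCON and 0.938, 0.772 and 0.872 in shRB. NUP62 exons overlap those of ATF5 on the opposite strand and IL4I1 on the same strand. These partners had log2 fold changes of 0.013 and −0.0074 and did not pass. NUP98, a repeat protein that also binds RAE1, was 0.18 ± 0.081 without overlap (edgeR adjusted p = 0.11), and passed without shRB 2 (0.26, adjusted p = 0.0033).

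**Figure D4:**
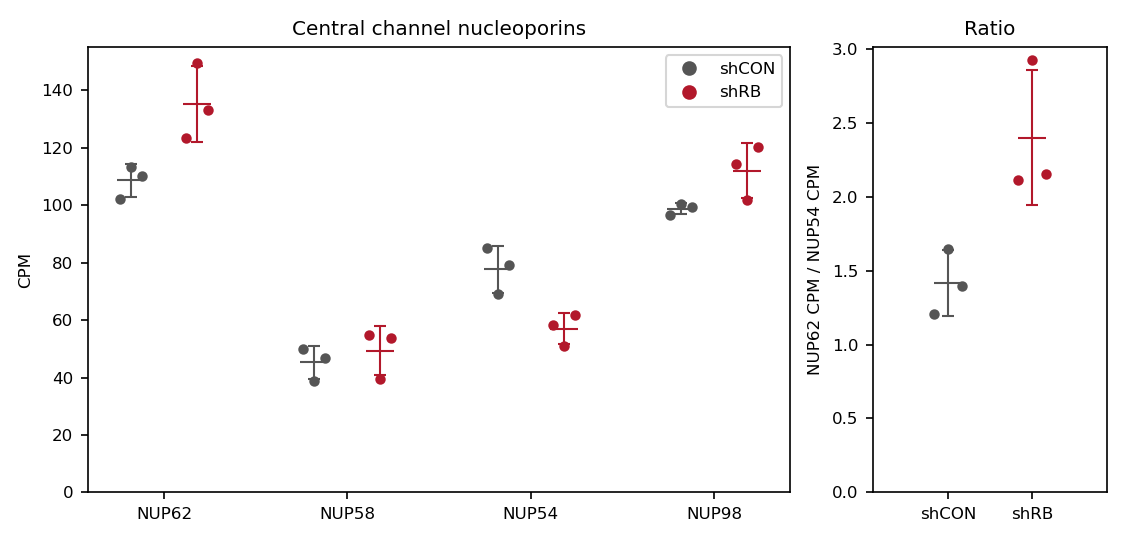
Left, CPM of the 4 channel nucleoporins, 1 point per library, with the mean and SD of each group of 3. Right, NUP62 over NUP54 in each library, 1.20 to 1.65 in shCON and 2.11 to 2.93 in shRB. This separation follows from that of NUP62 and NUP54 themselves.

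On the cytoplasmic side, where messenger ribonucleoproteins are remodelled on leaving the pore, 1 of 5 genes rose (12.8% of all IDs). NUP88, which holds NUP214 at the pore, was 93.8, 84.3 and 94.4 CPM in shCON and 119, 104 and 121 CPM in shRB, without overlap (log2 0.34 ± 0.084; edgeR adjusted p = 0.010). It was 0.29 with an adjusted p of 0.052 without shCON 2. Its exons overlap those of RABEP1 and RPAIN on the opposite strand, which were 0.14 and 0.16 and did not pass. NUP214 (0.15 ± 0.10), its partner, overlapped between groups. AAAS, the most abundant of these genes per kb (37.9 CPM per kb in shCON), was 63.5, 73.7 and 72.1 CPM in shCON and 64.5, 74.8 and 67.7 in shRB, with overlapping groups (log2 −0.010 ± 0.091, 95% interval −0.21 to 0.18). RANBP2 (NUP358), the filament protein that binds RAN and carries SUMO ligase activity, was 125, 105 and 111 CPM in shCON and 108, 81.1 and 129 in shRB. Its lowest value was in shRB 2, and its reads may be shared with the RGPD gene family. NUP42 had a log2 fold change of −0.012 ± 0.11, also with overlapping groups.

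None of the 3 nuclear basket genes passed by edgeR, DESeq2 or limma-voom, and 0 had an unadjusted p under 0.05. NUP50, which helps release importin alpha cargo, was 70.0, 65.5 and 64.2 CPM in shCON and 76.7, 65.4 and 79.5 CPM in shRB (log2 0.15 ± 0.091; edgeR adjusted p = 0.26). The library shRB 2 lay among the shCON values and the other two lay above them. TPR, the basket filament, was 59.0, 46.1 and 50.2 CPM in shCON and 57.2, 41.3 and 68.0 in shRB, with its lowest value of all in shRB 2. NUP153 was 48.0, 43.5 and 45.8 and 50.5, 36.2 and 53.5 CPM in the same order, with the same library lowest. Without shRB 2, NUP50 (0.23, edgeR adjusted p = 0.016) and TPR (0.26, adjusted p = 0.019) passed and NUP153 (0.19, adjusted p = 0.086) did not. With all libraries and the GC correction, NUP50 passed (0.20, edgeR adjusted p = 0.0094) and TPR and NUP153 did not.

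Among import receptors 1 of 10 IDs, for 9 genes, rose and 0 fell (12.8% and 12.5% of all IDs). IPO4, which carries histones and ribosomal proteins, was 122, 130.3 and 125 CPM in shCON and 144, 179 and 153 CPM in shRB, without overlap (log2 0.34 ± 0.087; edgeR adjusted p = 0.011). It was highest in shRB 2, and it no longer passed without shCON 1 (0.32, adjusted p = 0.058). IPO9, a carrier of histones and actin, was also separate between groups at 112, 120.1 and 119 and 143, 128 and 136 CPM (log2 0.21 ± 0.075; edgeR adjusted p = 0.053). IPO9 passed without shRB 2 (0.26, adjusted p = 0.0021). Both IDs of IPO11, a carrier of ubiquitin-conjugating enzymes, gave like estimates (−0.12 ± 0.083 for ENST00000325324 and −0.13 ± 0.10 for ENST00000409534) and did not pass, although the first was below shCON in all shRB libraries.

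TNPO2, the most abundant import receptor per kb (40.5 CPM per kb in shCON) and a transportin for RNA-binding proteins, was 198, 223 and 201 CPM in shCON and 204, 237 and 198 CPM in shRB. The groups overlapped fully (log2 0.036 ± 0.085, 95% interval −0.15 to 0.22). IPO5 and IPO7, carriers of ribosomal proteins and histones, were 0.11 ± 0.073 and 0.027 ± 0.11, and TNPO3, a carrier of splicing factors, was −0.080 ± 0.083. With the GC correction, IPO5 (0.19, edgeR adjusted p = 0.028) and IPO7 (0.13, adjusted p = 0.048) passed as higher. In that setting 4 import receptor IDs were higher and 0 lower (22.0% and 17.5% of all IDs). IPO8 was −0.20 ± 0.084 (edgeR adjusted p = 0.11) and passed as lower without shRB 3 (−0.27, adjusted p = 0.048). IPO13 was −0.11 ± 0.090 and passed as lower without shRB 2 (−0.19, adjusted p = 0.037).

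No export receptor passed in the fit by group alone. Of 6 genes, 0 were called by edgeR, DESeq2 or limma-voom, 0 had an unadjusted p under 0.05, and 0 were called without shRB 2 or with the GC correction, whereas XPO6 was called when the replicate number was added as a term. CSE1L, the exporter of importin alpha and the second most abundant ID of the set per kb (74.3 CPM per kb in shCON), was 267, 246 and 279 CPM in shCON and 275, 254 and 282 CPM in shRB. The libraries of the groups interleaved (log2 0.034 ± 0.075, 95% interval −0.13 to 0.20), beside the rise of KPNA2 among its cargoes. XPO1 (CRM1), the exporter of proteins with leucine-rich signals, was 209, 175 and 193 CPM in shCON and 207, 164 and 202 in shRB (log2 −0.012 ± 0.10, 95% interval −0.22 to 0.20). XPO6, the actin exporter, had the smallest p of this group, at 168, 192 and 171 CPM and 181, 216 and 197 CPM (log2 0.16 ± 0.085; edgeR adjusted p = 0.18). With the replicate number as a term XPO6 passed as higher (0.16, edgeR adjusted p = 0.034), and it did so with the GC correction added (0.13, adjusted p = 0.038). XPO5, which exports microRNA precursors, was 0.0037 ± 0.082 with an interval of −0.17 to 0.18. XPO7 was −0.034 ± 0.074 (interval −0.19 to 0.13) and XPO4 0.019 ± 0.11 (interval −0.22 to 0.25). For CSE1L the interval ends at a log2 value of 0.20, under the lower limit of 0.38 for KPNA2; the difference between the genes was not tested.

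Levels per kb in shCON ranged from 2.47 CPM per kb for XPO4 to 89.8 for KPNA2 among IDs with counts. The 10 genes that rose had a median transcript GC content of 48.2% and a median mean level of 130.1 CPM, against 41.8% and 70.2 CPM for the 37 IDs not called. Summed over the 49 IDs, the set took 4568, 4447 and 4499 CPM in shCON and 4905, 4825 and 5106 CPM in shRB. Every shRB library was above every shCON library in this sum. Of the 48 tested IDs, 35 shared no exon with another gene in the table. Of these, 6 rose and 1 fell (12.8% and 12.5% of all IDs tested). Of the 45 tested IDs outside chromosome 3, 8 rose and 1 fell, a count added after seeing the data.

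Genes that work with the pore but lie outside the set were taken from a list of the Ran cycle, other pore parts, mRNA export, pore-linked SUMO enzymes and the nuclear envelope. Of 41 tested, 16 rose (39.0%, against 12.8% of all IDs) and 1 fell (2.44%, against 12.5%), with a median log2 fold change of 0.15. The nuclear envelope gave 5 of 9, mRNA export and other receptors 5 of 15, the Ran cycle 2 of 6, the remaining pore parts 2 of 6 and the SUMO enzymes 2 of 5. LMNB1, the B-type lamin that lines the inner nuclear membrane, was 133, 131 and 138 CPM in shCON and 179.7, 193 and 186 CPM in shRB (log2 0.48 ± 0.070; edgeR adjusted p = 0.00028). TMPO, which encodes lamina-associated polypeptide 2, was 85.4, 74.1 and 78.1 CPM in shCON and 128, 99.6 and 128 in shRB (log2 0.58 ± 0.10; edgeR adjusted p = 0.0011). All shRB libraries exceeded all shCON libraries for both.

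NXT1, the small partner of the mRNA exporter NXF1, had the largest fold of these genes, from 10.6, 10.3 and 11.3 CPM in shCON to 16.7, 17.1 and 17.0 CPM in shRB (log2 0.67 ± 0.12). The export adaptor ALYREF went from 101 ± 5.36 to 135 ± 4.33 CPM and the helicase DDX39A from 73.1 ± 2.68 to 97.0 ± 10.1 CPM (SD, n = 3). RANBP1, which promotes GTP hydrolysis by RAN, went from 163 ± 3.17 to 214 ± 16.3 CPM (SD, n = 3). The edgeR adjusted p of these 4 genes was 0.0011 to 0.0041. RAN itself was 552, 558 and 565 CPM in shCON and 596, 588 and 563 CPM in shRB and did not pass (log2 0.062 ± 0.067, 95% interval −0.082 to 0.21; edgeR adjusted p = 0.54). The fall was in MCM3AP, an mRNA export scaffold on chromosome 21 (log2 −0.29 ± 0.089, edgeR adjusted p = 0.029). The 122 other tested IDs of that chromosome had a median log2 fold change of −0.38, below the value of MCM3AP. MCM3AP, whose exons overlap those of an antisense gene in the table, no longer passed when shCON 1, shCON 2, shCON 3, shRB 1 or shRB 3 was left out. RANBP1, ALYREF and TMPO overlap exons of an opposite-strand gene too. Without shCON 1, shCON 2, shCON 3 or shRB 3 the list had 10 higher members (7.31%, 9.48%, 8.2% and 10.1% of all IDs, in that order).

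**Figure D5:**
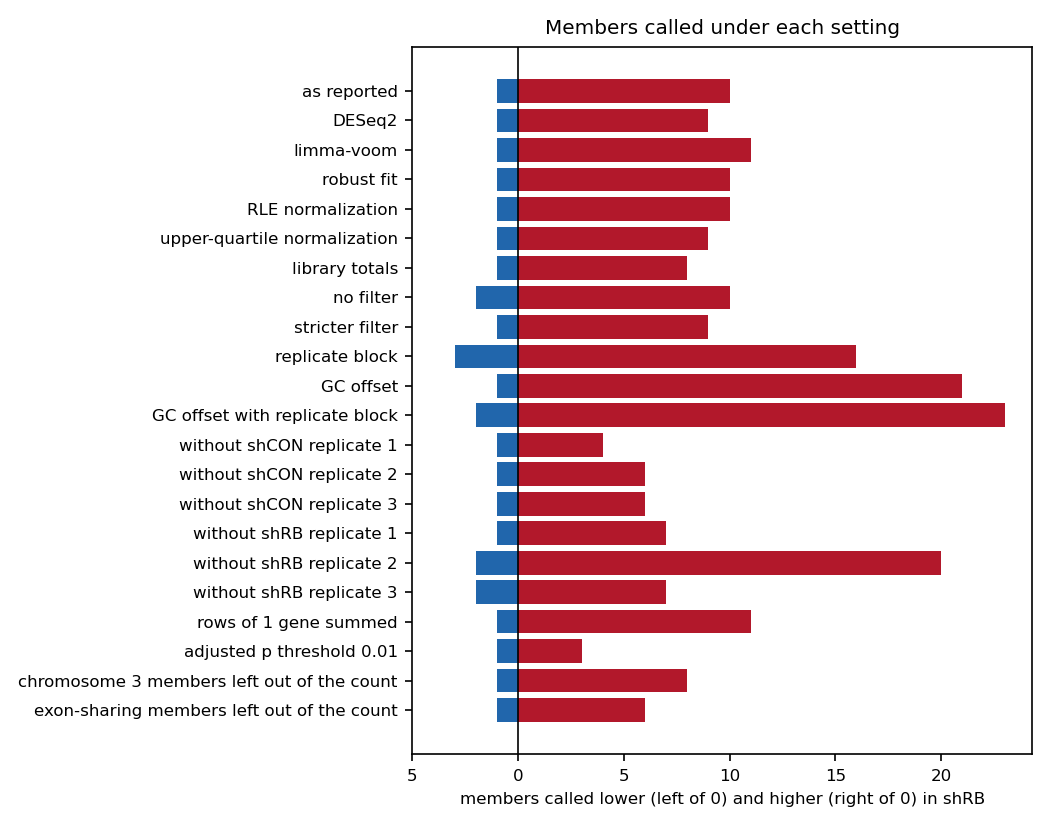
Number of transcript IDs of the set called lower (blue, left of 0) and higher (red, right of 0) in shRB under each setting. The count of higher IDs runs from 3 at an adjusted p threshold of 0.01 to 23 with the GC correction combined with a replicate term. Over all IDs, 787 of 11712 were higher at 0.01, and 23.6% were higher with the correction and the term. The count of lower IDs runs from 1 to 3, the latter with the replicate term alone (19.6% of all IDs lower).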

How the data were processed

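The deposited file holds unnormalized read counts as whole numbers, for each transcript ID in each of 6 libraries. The submitters' processing notes name hg19 and the tools STAR, HOMER and edgeR. The annotation and counting options, strand included, were not given in the sources used here. Genes that overlap may therefore share reads. Of 22279 IDs, 22182 matched GENCODE release 29 (GRCh38) by transcript ID, which gave gene, chromosome, length and GC content; symbols followed a newer gene name table. The 97 unmatched IDs held 0.38% of counts. The set and the gene lists were chosen with earlier results of these data known.

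All IDs were fitted with edgeR 4.0.16 in R 4.3.3: filterByExpr (minimum count 10, minimum total 15), TMM, glmQLFit and glmQLFTest with group as the only term, and Benjamini-Hochberg adjustment over 11712 IDs (threshold 0.05). CPM uses TMM-scaled totals, and SE is the log2 fold change divided by the square root of F. Intervals are 95% t intervals from that SE.

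Genes given per library are those that passed without overlap and, in each role, those with the smallest p and the highest level per kb; others named with per-library values, such as TPR, XPO1 and RAN, were chosen after their values were seen. From the list of other transport genes the rule took the 6 with the smallest p.

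Alternatives were DESeq2 1.42.0, limma-voom (limma 3.58.1), robust fitting, 3 normalizations, 2 filters, summed IDs, the replicate number as a block, a loess GC correction, each library left out and a threshold of 0.01. Within groups, chi-square per degree of freedom between library pairs was 2.23 to 11.4, so none was treated as a duplicate. The fit was also run on simulated data for this comparison (11603 IDs), with 50 changed genes per fold. It recovered 12% of genes with a fold of 1.25, 60% with a fold of 1.5, 88% with a fold of 2 and 100% with a fold of 4. Of 134 calls, 4 were false. The real data gave 2958 calls, and the adjustment depends on how many genes change, so these rates need not hold for them.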

Additional observations from a re-analysis of the deposited data

How the results depend on the processing

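Of 863 alternative values for the 48 tested IDs, 745 kept their direction and side of the threshold, 27 lost and 50 gained a call, and 41 changed sign, all in genes that had not passed. RB1 kept its call throughout. The count of higher genes was 10 as reported, 16 with the replicate number as a block, 21 with the GC correction, 23 with both, 3 at a threshold of 0.01 and 6 without the genes that share exons (chosen after seeing the data). It ranged from 4 (without shCON 1) to 20 (without shRB 2) with 1 library left out, and was 6 without shCON 2 and without shCON 3. The 1 lower gene became 2 without a filter, 3 with the block and 2 with the block and GC correction, and ranged from 1 to 2 with 1 library left out. For the other transport genes, 16 higher became 9 at 0.01 (10 to 18 with 1 library left out). The 1 lower became 3 with the block, 2 with the block and GC correction, 0 at 0.01 and 0 to 1 with 1 library left out. The causes were not tested beyond these settings. Over all IDs, 1499 higher and 1459 lower became 2203 and 2294 with the block (18.8% and 19.6% of all IDs), 2582 and 2054 with the GC correction, 2769 and 2168 with both, 863 and 912 without shCON 1, 969 and 964 without shCON 3, and 787 and 793 at 0.01.

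The deviations of same-numbered libraries had correlations of 0.31, 0.43 and 0.0040. Libraries shRB 1 and shRB 2 each correlated best with the shCON library of the same number, whereas shRB 3 correlated best with shCON 1 (0.35). The main fit did not take the numbers as pairs, and these values do not settle whether they are. The block added IPO9, NDC1, NUP85, NUP98, NUP133 and XPO6 to the higher genes, and IPO8 and KPNA5 to the lower ones.

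Signs changed with the GC correction in KPNA3 (0.048), NUP42 (0.048), XPO1 (0.073) and XPO7 (0.0021), and with the GC correction and block in the same genes (0.043, 0.056, 0.074 and 0.00028). They changed with upper-quartile scaling in XPO4 (−0.0055) and XPO5 (−0.021), and in XPO5 with library totals (−0.013) and the stricter filter (−0.0046). With 1 library left out, the log2 range spanned 0 in AAAS (−0.081 to 0.038), CSE1L (−0.0099 to 0.086), IPO7 (−0.045 to 0.16), KPNA3 (−0.10 to 0.087), NUP153 (−0.074 to 0.19), NUP42 (−0.12 to 0.077), POM121 (−0.12 to 0.052), RANBP2 (−0.26 to 0.059), TNPO2 (−0.039 to 0.096), TPR (−0.076 to 0.26), XPO1 (−0.073 to 0.092), XPO4 (−0.056 to 0.079), XPO5 (−0.044 to 0.056) and XPO7 (−0.057 to 0.013).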
